A study of Mus musculus with 33 samples.

Results

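Fetal liver was compared with fetal kidney and fetal lung for the ribose methylation of ribosomal RNA (rRNA). The comparison used the 9 RiboMeth-seq libraries of these organs at embryonic day E16.5, 3 from liver, 3 from kidney and 3 from lung, out of 33 libraries in the mouse series. They were chosen by the tissue and stage in their labels. The other 24 libraries came from E16.5 brain and heart, from whole heads at E9.5 and from the same 5 organs of adults. The labels give tissue and stage for each group and no strain, genotype, sex or treatment. Each library was made from whole-cell RNA of a tissue, so its values average over all cells of the organ, and a site methylated in part of the cells cannot be told apart from a site methylated on part of the ribosomes of every cell. The tables hold rRNA alone, so the labelled organs could not be checked against marker genes.

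The methyl group sits on the 2′ hydroxyl of the ribose. It is placed while the ribosome is made in the nucleolus, by fibrillarin in a particle whose box C/D small nucleolar RNA (snoRNA) pairs with the rRNA and picks the nucleotide. Most marked positions are methylated on nearly every ribosome, and a smaller number are methylated on part of them. Before birth the liver is a main site of blood cell formation, so the organ holds many maturing red cells beside its hepatocytes, whereas kidney and lung at this age are branching epithelial organs. RiboMeth-seq reads the mark from alkaline cleavage, which a 2′-O-methyl group blocks, so few read ends are counted for a methylated nucleotide. The score of a site is 1 minus its read ends over the weighted mean of its 6 neighbours on each side. It runs from 0, where no protection was measured, to 1, where no read end was counted for the site.

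In the main test liver was called different from the other 2 organs at 10 sites, 6 in 18S rRNA (SSU) and 4 in 28S rRNA (LSU). This count changed with the read ends and the libraries used. The sites are named by nucleotide and position in human rRNA, as the authors' table does. The stretches of mouse rRNA around them are shown because each is the place where a guide snoRNA has to pair. They were read 5′ to 3′ from the deposited nucleotide column, with 10 bases on each side and the methylated nucleotide in capitals.
LSU-Am4541, 28S mouse position 4224: ccuacugaugAuguguuguug
LSU-Gm4593, 28S mouse position 4276: cgcagguucaGacauuuggug
LSU-Um2402, 28S mouse position 2173: ggguuccaugUgaacagcagu
LSU-Cm2352, 28S mouse position 2123: gugguaguagCaaauauucaa
SSU-Um121, 18S mouse position 121: augguuccuuUggucgcucgc
SSU-Um354, 18S mouse position 356: uucgaacgucUgcccuaucaa
SSU-Am590, 18S mouse position 592: uuuaacgaggAuccauuggag
SSU-Gm601, 18S mouse position 603: uccauuggagGgcaagucugg
SSU-Gm867, 18S mouse position 869: uaggaauaauGgaauaggacc
SSU-Um1442, 18S mouse position 1444: ucccccaacuUcuuagaggga
In human rRNA, SNORD78 guides Gm4593, SNORD24 Cm2352, SNORD4A Um121, SNORD90 Um354, SNORD62 Am590, SNORD103 Gm601, SNORD98 Gm867 and SNORD61 Um1442. For LSU-Am4541 and LSU-Um2402 no guide is named here. In the mouse RefSeq table, Snord90 lies inside Rc3h2, Snord98 inside Ccar1, Snord61 inside Rbmx and Snord4a inside the ribosomal protein gene Rpl23a.

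The 9 libraries held from 463388 to 8525253 read ends, and 1 of them stood apart in depth. The third lung library was the shallowest, with a median of 57.2 flanking read ends at a tested site, against 197 to 1383 in the other 8. The counting error of a score (SD, counting only, as reads were not collapsed to molecules) had a median of 0.0498 in that library and of 0.00827 to 0.0211 in the others. Its median score over the 107 tested sites, 0.857, was also the lowest, against 0.894 to 0.930 in the other 8. Libraries of different organs that carry the same replicate number deviated from their group means together, so values are also given within each number.

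Fetal liver had lower scores than fetal kidney and lung at 9 of the 107 tested sites, or 8.41%, and a higher score at 1, LSU-Gm4593, or 0.935%. Together these were 9.35% of the sites, called at an adjusted p under 0.05 in limma with Benjamini-Hochberg adjustment over all 107. The differences ran from -0.389 at SSU-Um1442 to 0.193 at LSU-Gm4593. At 8 of the 10 called sites all 3 liver libraries lay outside the range of all 6 kidney and lung libraries. The exceptions were SSU-Um1442 and LSU-Cm2352. No uncalled site was separated in this way. Of the 97 uncalled sites, 78 differed by less than 0.05, with a median absolute difference of 0.0250. When the spread was estimated from the 9 libraries alone rather than from all 33, only LSU-Am4541 and SSU-Am590 were called.

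**Figure D1:**
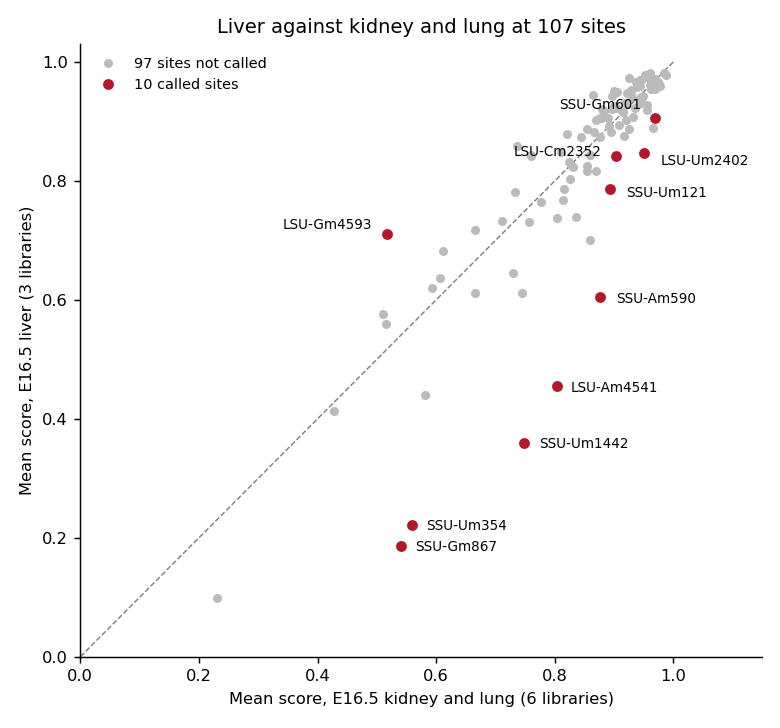
Each point is 1 of 107 sites, with the mean RiboMeth-seq score over 6 E16.5 kidney and lung libraries on the horizontal axis and over 3 E16.5 liver libraries on the vertical axis; the dashed line marks equal scores and red points are called. Of the 10 red points 9 lie below the line, and LSU-Gm4593, at 0.711 in liver and 0.517 in kidney and lung, lies above it.

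LSU-Am4541 had the lowest adjusted p of the 10. Its scores were 0.430, 0.469 and 0.464 in liver, against 0.809, 0.845 and 0.819 in kidney and 0.776, 0.795 and 0.774 in lung. Every liver library lay far below every other. Liver was lower by 0.349 ± 0.0225 (SE, 3 liver against 6 other libraries, adjusted p = 2.77e-12, limma). The spread behind this SE, and behind every limma SE below, was estimated from all 33 libraries. With the spread of the 9 libraries alone the adjusted p was 0.0101 (limma). The counts behind this were large: 473, 1473 and 943 read ends fell on the nucleotide in liver, at flanking means of 830, 2775 and 1758. In kidney 629, 132 and 1213 read ends fell on it, and in lung 1488, 726 and 225, at flanking means of 853 to 6690. The counting SD of the score was at most 0.0269 in any of the 9 libraries. The site was called under each of the 24 other limma settings tried, but the difference was smaller from 3′ ends alone, -0.196, and with 2 neighbours on each side in place of 6, -0.221.

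LSU-Gm4593, 52 nucleotides further along 28S rRNA, moved the other way. It scored 0.654, 0.745 and 0.732 in liver, against 0.489, 0.576 and 0.547 in kidney and 0.480, 0.548 and 0.463 in lung. All 3 liver libraries again lay outside the other 6, here above them. Liver was higher by 0.193 ± 0.0395 (SE, adjusted p = 0.000649, limma). The call did not hold in 3′ read ends alone, where the difference was 0.0545 (adjusted p = 0.870), while 5′ ends alone gave 0.290 (adjusted p = 0.00041). The call was also lost after thinning to the depth of the shallowest library (0.180, adjusted p = 0.0508), with 2 neighbours on each side (0.153, adjusted p = 0.0752) and in fits to the 15 E16.5 libraries (adjusted p = 0.0722) or the 9 libraries alone. It was kept in 18 of 24 other settings.

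**Figure D2:**
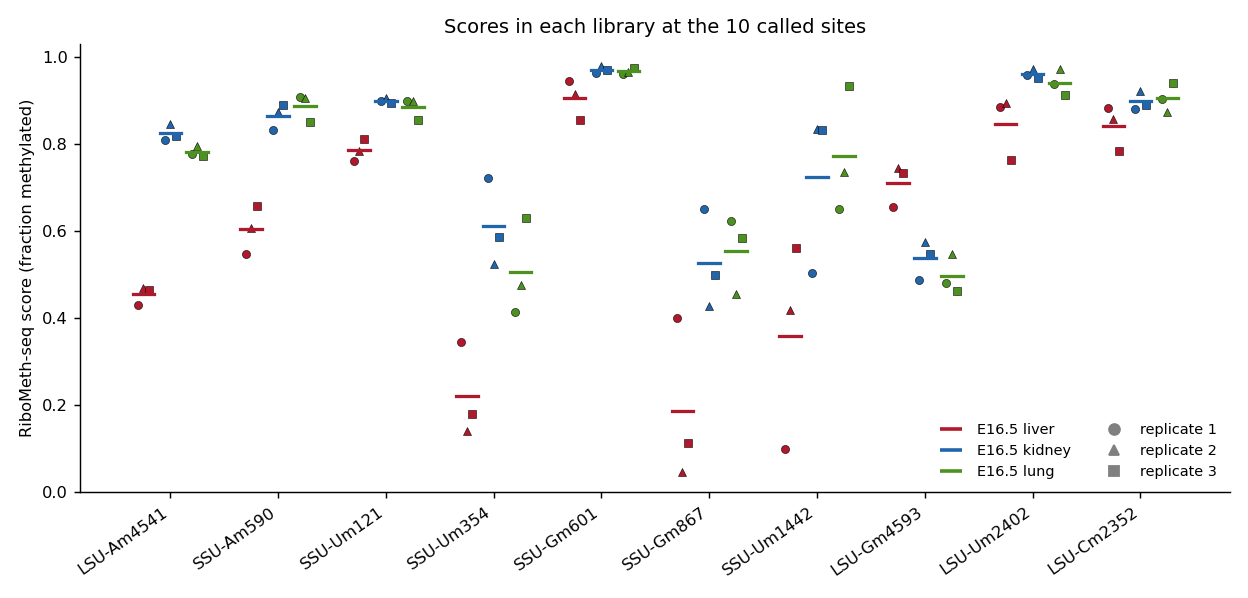
Score of every library at the 10 called sites, with E16.5 liver in red, kidney in blue and lung in green; symbols mark the replicate number and bars the mean of 3 libraries. At LSU-Am4541 the liver libraries sit between 0.430 and 0.469 and all others between 0.774 and 0.845, while at SSU-Um1442 the highest liver library, 0.560, lies above the lowest kidney library, 0.504.

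In 18S rRNA the difference was widest at 3 sites with mean scores under 0.8 in all 3 organs, each with a known human guide. SSU-Gm867, a target of human SNORD98, scored 0.400, 0.0459 and 0.113 in liver, against 0.651, 0.427 and 0.500 in kidney and 0.624, 0.456 and 0.583 in lung. Liver libraries 2 and 3 were almost without protection there, and the highest liver library was still below the lowest kidney library. Liver was lower by 0.354 ± 0.0664 (SE, adjusted p = 0.000284). Within the 3 replicate numbers the liver score was lower than the mean of its kidney and lung partners by 0.238, 0.395 and 0.429.

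SSU-Um354, a target of human SNORD90, scored 0.344, 0.140 and 0.180 in liver, against 0.722, 0.523 and 0.586 in kidney and 0.415, 0.476 and 0.629 in lung. The groups did not overlap, and kidney and lung overlapped each other. Liver was lower by 0.337 ± 0.0543 (SE, adjusted p = 4.67e-05, limma). In 3′ read ends alone the difference was -0.132 and not called (adjusted p = 0.474), and from 5′ ends alone it was -0.218 (adjusted p = 0.00676).

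SSU-Um1442, a target of human SNORD61, had the widest spread of the 10. It scored 0.0998, 0.419 and 0.560 in liver, against 0.504, 0.833 and 0.833 in kidney and 0.651, 0.736 and 0.933 in lung. The first library of each organ was its lowest, so liver and kidney overlapped across numbers but not within one: liver lay below its partners by 0.478, 0.366 and 0.323. The difference of all libraries was -0.389 ± 0.0751 (SE, adjusted p = 0.000361, limma), and it was not called in the fit to the 9 libraries alone (adjusted p = 0.177). With the replicate number as a block over the 9 libraries, limma gave an adjusted p of 5.21e-08 within the fit to all 33 libraries. The same block in the 9 libraries alone gave 0.00537. This block was chosen after the data were seen, and the pairing was read from the same scores, so neither value is separate support. In the third lung library this score rests on 3 read ends at a flanking mean of 45.1. From 3′ read ends alone the site was not called, with a difference of -0.206 (adjusted p = 0.830). Without the first liver library the difference was -0.259 (adjusted p = 0.0116).

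The other 18S sites were SSU-Am590, SSU-Gm601 and SSU-Um121. SSU-Am590, a target of human SNORD62, scored 0.547, 0.608 and 0.658 in liver, against 0.833, 0.873 and 0.890 in kidney and 0.907, 0.906 and 0.851 in lung. Liver was lower by 0.272 ± 0.0288 (SE, adjusted p = 5.31e-08), and no liver library came near the others. SSU-Gm601 lies 11 nucleotides downstream and was close to full in all 3 organs, at 0.944, 0.915 and 0.855 in liver, against 0.960 to 0.979 in the 6 kidney and lung libraries. Its difference of -0.0642 ± 0.0111 was small but called (adjusted p = 0.000108). It was -0.0393 without the third liver library and -0.0378 from 3′ ends alone, both called. SSU-Am576, which lies 14 nucleotides upstream of SSU-Am590 and is guided in human by SNORD93, scored 0.968, 0.924 and 0.929 in liver, against 0.923 to 0.974 in the 6 others. The groups overlapped fully there (difference -0.00499 ± 0.0435, adjusted p = 0.973).

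SSU-Um121 scored 0.762, 0.784 and 0.811 in liver, against 0.90, 0.905 and 0.895 in kidney and 0.898, 0.90 and 0.856 in lung. Liver was lower by 0.107 ± 0.0134 (SE, adjusted p = 9.68e-07). It has a listed neighbour within 6 nucleotides. From 3′ read ends alone the difference was -0.0243 (adjusted p = 0.741), against -0.133 from 5′ ends (adjusted p = 7.31e-05).

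In 28S rRNA, LSU-Um2402 scored 0.884, 0.894 and 0.763 in liver, against 0.958, 0.971 and 0.951 in kidney and 0.938, 0.972 and 0.913 in lung. Liver was lower in all 3 libraries, by 0.103 ± 0.0218 (SE, adjusted p = 0.000845), and lowest in the third. Without that library the difference was -0.0613 (adjusted p = 0.0326). The call was lost after thinning (-0.0788, adjusted p = 0.0508) and from 3′ ends alone (-0.104, adjusted p = 0.118), and with 2 neighbours on each side the difference was -0.180. LSU-Cm2352, 50 nucleotides upstream and guided in human by SNORD24, was the least certain call. It scored 0.883, 0.858 and 0.784 in liver, against 0.881, 0.923 and 0.891 in kidney and 0.905, 0.873 and 0.941 in lung, so that the first liver library lay among the others. The difference was -0.0605 ± 0.0164 (SE, adjusted p = 0.0118), and without the third liver library it was -0.0318 (adjusted p = 0.232). The call was kept in 18 of 24 other settings, and the value ran from -0.0119 from 3′ ends to -0.154 with 2 neighbours on each side.

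LSU-Cm2352 was the last site inside the threshold. Just outside it were LSU-Cm1327, with a difference of -0.0415 (adjusted p = 0.0643), and LSU-Um3797, with 0.0506 (adjusted p = 0.0897). Both had the liver library on 1 side of its kidney and lung partners in every number.

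Among the sites that were not called, some differed by more than 0.1 with a spread to match. SSU-Cm797 scored 0.805, 0.713 and 0.584 in liver, against 0.931, 0.918 and 0.876 in kidney and 0.949, 0.899 and 0.580 in lung. Only the shallow lung library, the third, lay as low as liver. The difference was -0.158 ± 0.0644 (SE, adjusted p = 0.161), and it was called with the replicate number as a block (adjusted p = 0.0459) and without the third lung library (-0.216, adjusted p = 0.00488). With the same block fitted to the 9 libraries alone it was not called (adjusted p = 0.191). The authors' corrected E16.5 lung mean of this site was 0.847, against 0.809 uncorrected, and that correction could not be rebuilt. The next 4 in size were LSU-Am4560 at -0.141, LSU-Am3804 at -0.133, SSU-Gm436 at -0.132 and SSU-Cm1391 at 0.123, with adjusted p from 0.394 to 0.737. LSU-Am3804 scored 0.0138, 0.843 and 0.978 in the 3 liver libraries, against 0.386 to 0.972 in the 6 others. Without the first liver library the difference was 0.166. With the authors' barcode correction rebuilt, which changes 1 library of each organ here, it was -0.0301.

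Sorted by replicate number, liver lay below both of its partners in all 3 numbers at 13 of the 107 sites (12.1%) and above both at 5 (4.67%). Of the 9 sites called lower 8 were among the 13, all but LSU-Cm2352. The one site called higher was among the 5. The uncalled members were LSU-Cm1327, LSU-Gm2351, LSU-Cm2848, LSU-Cm3680 and LSU-Am4560 on the lower side and SSU-Um627, LSU-Am1511, LSU-Gm1612 and LSU-Um3797 on the higher side. With the number as a block over the 9 libraries, all 10 calls were kept and 4 more were made, SSU-Cm797, LSU-Cm1327, LSU-Am2388 and LSU-Am3739, all lower in liver. That block was chosen after the data were seen, and fitted to the 9 libraries alone it gave 5 calls. The authors corrected the E16.5 liver mean of LSU-Am3739 for a barcode effect, to 0.967 in their deposited table against 0.888 uncorrected. Its difference was -0.0765 as tested and 0.0025 with the correction rebuilt (adjusted p = 0.955).

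Over all 107 tested sites liver was lower at 9 and higher at 1, the 9.35% given above. By molecule, it was lower at 6 of the 40 tested 18S sites (15% called), higher at none and not called at 34, with a median difference of -0.00313. Of 65 28S sites 3 were lower (LSU-Am4541, LSU-Um2402 and LSU-Cm2352), 1 was higher and 61 were not called (6.15% called), with a median of 0.000859. Neither of the 2 sites of 5.8S rRNA was called. The median over all 107 sites was -0.00266. By nucleotide, 4 of 20 uridines were lower (SSU-Um121, SSU-Um354, SSU-Um1442 and LSU-Um2402), against the 9 lower of 107 in all; these counts were not tested. The same held for 2 of 33 adenosines (LSU-Am4541 and SSU-Am590), 2 of 32 guanosines (SSU-Gm601 and SSU-Gm867) and 1 of 22 cytidines (LSU-Cm2352), and the higher site was a guanosine.

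Called sites were found at all levels of methylation, with the largest share called at the lowest level. Levels were set by the mean over the 9 libraries, liver included, so a site's own difference helps to place it. LSU-Am4541, for example, averaged 0.824 in kidney and 0.782 in lung but fell under 0.75 with liver included. Of the 20 sites whose mean score over the 9 libraries was under 0.75, 5 were called (25%): LSU-Am4541, SSU-Um354, SSU-Gm867 and SSU-Um1442 lower and LSU-Gm4593 higher. From 0.75 to 0.9, 3 of 36 were called (8.33%), SSU-Am590, SSU-Um121 and LSU-Cm2352. At 0.9 or more, 2 of 51 were called (3.92%), SSU-Gm601 and LSU-Um2402. The shares were not tested against each other. A listed neighbour within 6 nucleotides, which lowers the flanking mean, was present at 4 of the 10 called sites and at 38 of all 107. With such neighbours taken out of the flanks the same 10 sites were called.

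The median score of a library over the tested sites did not separate the organs. It was 0.896, 0.926 and 0.917 in liver, against 0.894, 0.926 and 0.930 in kidney and 0.899, 0.925 and 0.857 in lung. Liver averaged 0.913 ± 0.0154 (SD, n = 3) and kidney and lung 0.905 ± 0.0280 (SD, n = 6), a difference of 0.00771 (exact permutation test, two-sided, p = 0.857, where the smallest p that 3 against 6 libraries can give is 0.0238). The permutation tests in this paragraph treat the 9 libraries as independent. They take no account of the replicate numbers, although libraries of the same number deviated together. The 2 kinds of read end gave different pictures. Scores from 5′ ends had medians of 0.916 to 0.923 in liver, all below the 0.933 to 0.946 of kidney and lung. That difference of -0.0192 reached the smallest p possible, 0.0238 (exact permutation test). From 3′ ends the medians were 0.910 to 0.929 in liver and 0.831 to 0.941 in kidney and lung (difference 0.0178, exact permutation p = 0.500). The counts of called sites moved with this: 23 lower and 3 higher from 5′ ends, all 10 sites above among them, and 4 lower and none higher from 3′ ends. The 4 were LSU-Am4541, SSU-Am590, SSU-Gm601 and SSU-Gm867. The share of 5′ ends itself was 49.0% to 49.7% in the 9 libraries.

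Liver was also set against each organ alone. These comparisons share the liver libraries and together make up the main contrast, so an overlap of their calls is no separate evidence. Against kidney, 10 sites were lower and 1 higher in liver (10.3% of 107), and against lung 9 were lower and 1 higher (9.35%). Both called LSU-Am4541, LSU-Gm4593, LSU-Um2402, SSU-Um121, SSU-Um354, SSU-Am590, SSU-Gm601, SSU-Gm867 and SSU-Um1442. LSU-Cm1327 (-0.0523, adjusted p = 0.0343) and LSU-Gm2411 (-0.119, adjusted p = 0.0343) were called against kidney alone, where LSU-Cm2352 differed by -0.0565 (adjusted p = 0.0554). Against lung LSU-Cm2352 was called (-0.0645, adjusted p = 0.0242), and LSU-Cm1327 (-0.0308) and LSU-Gm2411 (-0.0105) were not. The count against lung depended on single libraries. It was 10 lower and 8 higher without the first lung library, 8 lower and 6 higher without the second, and 10 lower and 7 higher with the replicate number as a block over the 9 libraries.

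Kidney and lung were called different at none of the 107 sites in limma (0%, lowest adjusted p 0.403), while 9 had an unadjusted p under 0.05. At LSU-Am4541 kidney exceeded lung by 0.0426 (adjusted p = 0.432) and at LSU-Gm4593 by 0.0401 (adjusted p = 0.702). The widest difference was at SSU-Cm462, -0.218, where the libraries of kidney ran from 0.0794 to 0.906.

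The read ends themselves were tested with edgeR's quasi-likelihood test, with the flanking mean as offset, at listed and unlisted nucleotides alike. At LSU-Am4541 the read ends on the nucleotide were 0.546 of the flanking mean in liver, against 0.197 in kidney and lung, 1.48 higher on the log2 scale (adjusted p = 0.0256 over 6151 nucleotides). It was the only listed site called (0.935% of 107), with 12 at an unadjusted p under 0.05, and none was called with any 1 of the 9 libraries left out. No unlisted nucleotide of 6044 was called (0%), with 214 at an unadjusted p under 0.05 and 4 called by DESeq2. SSU-Am590 just missed the threshold, at 0.396 of the flanking mean in liver against 0.123 in kidney and lung (adjusted p = 0.0562), and DESeq2 called it together with LSU-Am4541.

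With the replicate number as a block, edgeR called 11 listed sites (10.3%) and 75 unlisted nucleotides (1.24%). An unadjusted p under 0.05 was found at 26 of the 107 listed sites and at 901 of the 6044 unlisted nucleotides, against 12 and 214 without the block. Of the 11 listed sites 10 had relatively more read ends in liver, that is less protection. They were SSU-Um121, SSU-Um354, SSU-Am590, SSU-Gm601, SSU-Cm797, SSU-Gm867, SSU-Um1442, LSU-Um2402, LSU-Am3739 and LSU-Am4541. At LSU-Am3739 the corrected score differed by only 0.0025. LSU-Gm4593 had fewer, 0.289 of the flanking mean in liver against 0.483 in kidney and lung (adjusted p = 0.0288). The unlisted nucleotides ran mostly the other way, 50 with fewer and 25 with more read ends in liver, at log2 differences of -1.44 to 0.986. Of the 75, 6 lay within 6 nucleotides of a called listed site and so share its window. Around LSU-Am4541, the nucleotide just downstream had 3.26 ± 0.306 times the flanking mean in liver, against 1.99 ± 0.375 in kidney and 2.18 ± 0.217 in lung (SD, n = 3 each). The nucleotide just upstream had 0.690 ± 0.0731 in liver, against 1.11 ± 0.242 in kidney and 1.0 ± 0.0941 in lung. The unlike neighbours enter the score of this site, and their part in its difference was not tested. The narrower window of 2 neighbours on each side keeps both of these nucleotides, so it cannot decide this. With that window the difference was -0.221 and still called (adjusted p = 1.5e-11, limma).

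**Figure D3:**
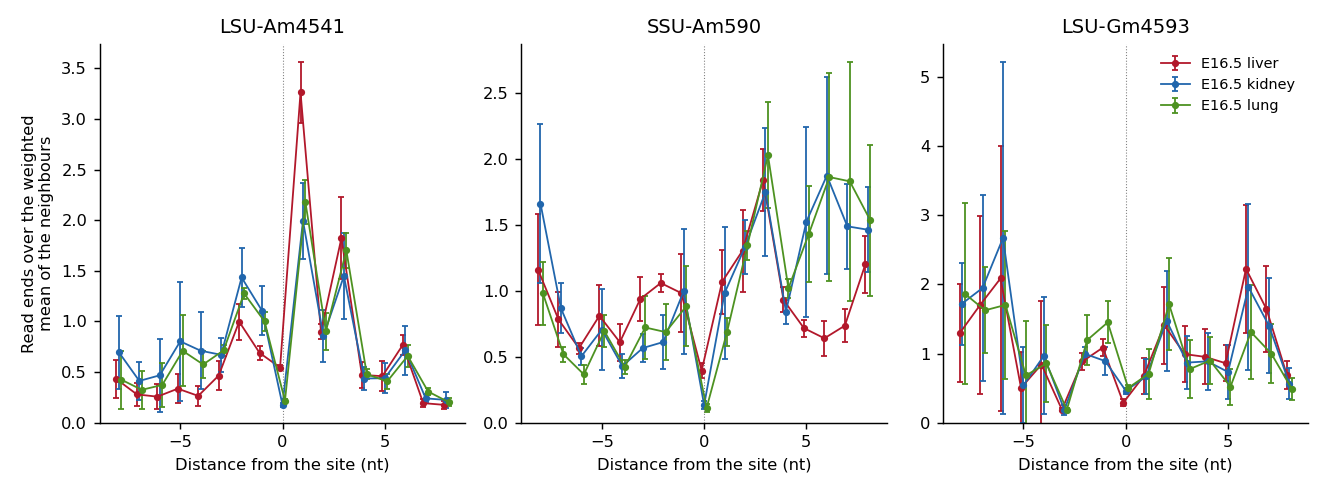
Read ends at each nucleotide over the weighted mean of the site's neighbours, by distance in nucleotides from LSU-Am4541, SSU-Am590 and LSU-Gm4593, as means with SD bars over 3 libraries of E16.5 liver (red), kidney (blue) and lung (green). At distance 0 liver stands at 0.546 against 0.176 in kidney and 0.218 in lung at LSU-Am4541, at 0.396 against 0.135 and 0.112 at SSU-Am590, and at 0.289 against 0.463 and 0.503 at LSU-Gm4593.

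The same contrast in adults asked whether these differences go with the organ at both ages. In adult liver against adult kidney and lung, 3 of 107 sites were called (2.80%), and 1 of the 10 fetal sites was among them. That site, LSU-Gm4593, was lower in adult liver by 0.166 ± 0.0395 (SE, adjusted p = 0.0206), the reverse of its fetal difference. All 3 adult liver libraries scored 0 there, where values below 0 had been set to 0. From 3′ ends alone neither the adult nor the fetal difference of this site was called. The others were LSU-Um4468, higher in adult liver by 0.0623 ± 0.0152 (adjusted p = 0.0206), and LSU-Cm2848, higher by 0.0443 ± 0.0120 (adjusted p = 0.0385). With library medians set equal LSU-Gm4593 was the only adult call. Liver minus kidney and lung at LSU-Am4541 was -0.349 at E16.5 and 0.0248 in adults, where adult liver scored 0.951 to 0.973.

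The test of the difference between stages called 10 sites (9.35%). In 9 of them the fetal difference was more negative than the adult one, and in LSU-Gm4593 it was more positive, by 0.359 ± 0.0558 (SE, adjusted p = 2.66e-05, limma). From 3′ ends alone 3 sites were called, all with a more negative fetal difference, so LSU-Gm4593 was not among them. The 4 others of the 5 widest were SSU-Gm867 at -0.415 ± 0.0939 (adjusted p = 0.00295), SSU-Um1442 at -0.383 ± 0.106 (adjusted p = 0.0161), LSU-Am4541 at -0.373 ± 0.0318 (adjusted p = 1.26e-09) and SSU-Am590 at -0.295 ± 0.0407 (adjusted p = 7.24e-06). LSU-Um2402, SSU-Um121, SSU-Gm601, LSU-Cm2848 and LSU-Cm1327 followed, between -0.133 and -0.0694. SSU-Um354 was not called. It was lower in liver by 0.337 at E16.5 and by 0.144 in adults (adjusted p of the adult value 0.248), and the stages differed by -0.193 ± 0.0768 (adjusted p = 0.133).

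**Figure D4:**
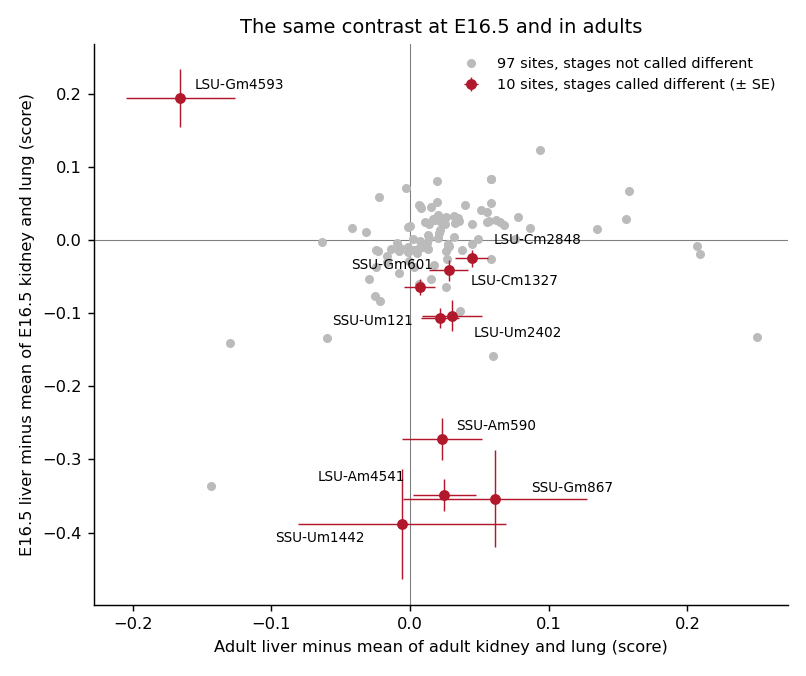
Liver minus the mean of kidney and lung at 107 sites, on the score scale, in adults (horizontal) and at E16.5 (vertical); red points with SE bars are the 10 sites at which the stages were called different. At SSU-Gm867, SSU-Um1442, LSU-Am4541 and SSU-Am590 the E16.5 difference lies between -0.389 and -0.272 and the adult one between -0.00589 and 0.0615, and LSU-Gm4593 stands alone at 0.193 at E16.5 and -0.166 in adults.

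Across all 11 groups of the series, E16.5 liver had the lowest mean at each of the 9 sites called lower and the highest at LSU-Gm4593. Over all 107 sites it had the lowest mean at 28 and the highest at 3. These ranks use the libraries that gave the calls and are a description. At LSU-Am4541 the E16.5 liver mean was 0.454 ± 0.0211 (SD, n = 3), and the 10 other group means ran from 0.782 in E16.5 lung to 0.968 in adult kidney. At LSU-Am4541, SSU-Am590 and SSU-Um121, 3 of the 107 sites, all 3 liver libraries lay below all 30 other libraries of the series. At the 7 other called sites and at all 97 uncalled sites the liver libraries overlapped the range of the 30. At SSU-Um354 and SSU-Gm867 the next lowest group was the E9.5 head, with 0.222 in E16.5 liver against 0.304 in heads at SSU-Um354, and 0.186 against 0.408 at SSU-Gm867. Single libraries of the 2 groups overlapped at SSU-Um354, where the highest liver library scored 0.344 and the lowest head library 0.235, and likewise at SSU-Gm867, with 0.400 in liver and 0.288 in heads. LSU-Gm4593 had 0.711 ± 0.0492 in E16.5 liver, 0.635 ± 0.0397 in E9.5 heads and a score of 0 in all 3 adult liver libraries, where values below 0 had been set to 0. Liver and head libraries overlapped at this site too, with 0.654 in the lowest E16.5 liver library and 0.668 in the highest head library.

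**Figure D5:**
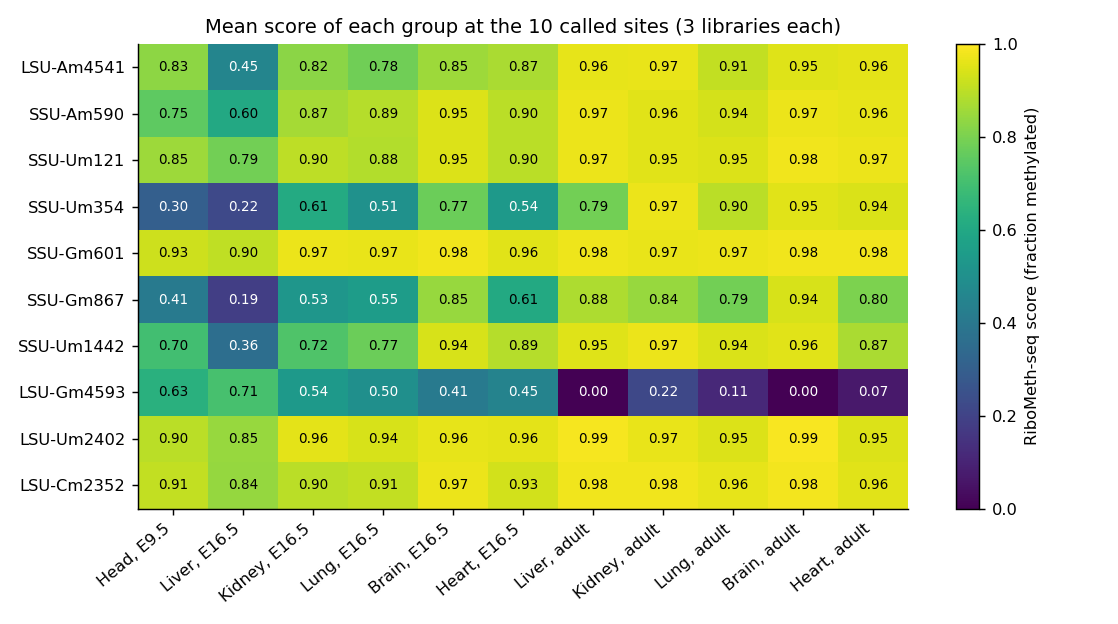
Mean score of 3 libraries (colour and number) at the 10 called sites in the 11 groups, from E9.5 head through E16.5 organs to adult organs. The E16.5 liver column holds the lowest value of its row at 9 sites and the highest, 0.711, at LSU-Gm4593.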

How the data were processed

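RiboMeth-seq reads had been reduced by the authors to deposited counts of 5′ read ends, 3′ read ends and their sum at each of 6878 nucleotides of mouse rRNA, with a deposited fraction methylated per library, per the file headers. Bowtie2 2.3.4.1 and cutadapt 2.0 appear in the submitters' processing notes, without roles or settings, and the source of the rRNA sequence was not given in the sources used here. All sheets carried the column names of adult lung, so groups were taken from sheet names and replicates from header endings. The means of the 3 sheets used here equalled the authors' table for their own group at 84 to 92 of 108 sites and for any other group at none. The authors' table is corrected for barcode effects at 107 of its means, of which 98 could be rebuilt, so uncorrected scores were tested and the rebuilt ones served as an alternative. Fractions recomputed from the deposited counts matched within 5e-10. The replicates, biological per the series' design text, differed by more than sampling noise (chi-square per degree of freedom 58.8 to 180).

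A site was tested with at least 10 flanking read ends in every library, which left 107 of 108. Scores were fitted with limma 3.58.1 in R 4.3.3 over all 33 libraries with 1 mean per group and variances that followed the mean score. Read ends were fitted with edgeR 4.0.16 and DESeq2 1.42.0 over the 9 libraries, with adjustment over listed and unlisted nucleotides together. Tests were two-sided, with Benjamini-Hochberg adjustment and a threshold of 0.05. Exact permutation tests were run in scipy 1.17.1, with tables and figures from pandas 2.3.3, numpy 2.4.6 and matplotlib 3.10.9 under Python 3.11.15.

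Same-numbered libraries of different organs correlated in their deviations from group means at 0.587 to 0.868 in all 9 pairs. From these positive values the numbers were taken to pair the samples. The 18 pairs of unlike numbers ran from -0.777 to -0.0631. Deviations from a group mean cancel out within the group, so positive same-numbered pairs force negative values on the unlike ones. The negative range is therefore no separate evidence of pairing. The labels do not say what a number stands for. Named were the called sites with separate libraries, the 5 uncalled sites with the widest differences, LSU-Gm4593, SSU-Am576, the 5 widest called stage differences and members of short lists. SSU-Um1442 and LSU-Cm2352 were named after their values were seen, as were sites called only against 1 organ or under a block. Members, lists and tests were chosen with earlier results of these data known. A list of sites by the host gene of their guide was not used, since the authors' table does not name guides.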

Additional observations from a re-analysis of the deposited data

Results flagged for a closer look

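The difference of liver from kidney and lung was itself different at E16.5 and in adults at 10 sites, by the interaction term in limma. On the score scale, the E16.5 difference minus the adult difference was -0.415 at SSU-Gm867, -0.383 at SSU-Um1442, -0.373 at LSU-Am4541, -0.295 at SSU-Am590, -0.133 at LSU-Um2402, -0.128 at SSU-Um121, -0.0711 at SSU-Gm601, -0.0695 at LSU-Cm2848 and -0.0694 at LSU-Cm1327, and it was 0.359 at LSU-Gm4593. LSU-Cm2848 and LSU-Cm1327 were not called at E16.5, where they differed by -0.0252 and -0.0415. No group holds more than 3 libraries, so single libraries were not tested as outliers.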

How the results depend on the processing

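LSU-Am4541 and SSU-Am590 were called under each of the 24 other limma settings, and SSU-Gm867 under 23, all but the fit to the 9 libraries alone. All 10 called sites kept their direction in every limma setting in which they were tested. Liver against kidney and lung gave 4 calls from 3′ ends, 26 from 5′ ends, 2 from the 9 libraries alone and 5 from these with a replicate block, against 10; leaving out 1 library gave 10 to 14, the highest without lung library 3. Against kidney alone (11 calls) the counts were 5 from 3′ ends, 22 from 5′ ends, 6 after thinning, 2 from 9 libraries, 5 from the 15 E16.5 libraries and 5 from the 9 with a replicate block, and 9 to 14 with 1 library left out. Against lung alone (10 calls) they were 3, 18, 6, 2, 2 and 4 in the same order, 17 with a replicate block over the 9 libraries within the larger fit, and 9 to 18 with 1 library left out. The replicate block over the 9 libraries, in both forms, and the edgeR fits without 1 library were chosen after seeing the data. Kidney against lung stayed at 0 calls in limma under every setting, with 2 to 27 sites at an unadjusted p under 0.05. The adult contrast (3 calls) gave 0 from 3′ ends, with 8 at an unadjusted p under 0.05, 9 from 5′ ends and 1 with library medians set equal. The stage difference (10 calls) gave 3 from 3′ ends and 22 from 5′ ends. The edgeR count of 1 was 11 with the replicate block, 2 by DESeq2 and 0 without any 1 library, with 12 to 15 sites at an unadjusted p under 0.05. In limma, the block over the 9 libraries within the larger fit kept the 10 calls and added those of SSU-Cm797, LSU-Cm1327, LSU-Am2388 and LSU-Am3739. Library medians differed by -0.0192 from 5′ ends, against 0.00771. Without 1 library, LSU-Am3804 ran from -0.317 (without liver library 3) to 0.166 (without liver library 1). SSU-Am576 turned to 0.00561 from 5′ ends and ran from -0.0188 (without liver library 1) to 0.00305 (without liver library 2) with 1 library left out, above 0 in 3 of the 9 cases. The causes were not tested. Fits to fewer libraries also have fewer degrees of freedom, and the part this plays was not tested either. Depth limits lung library 3 most, where the counting SD of a score reached 0.157.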
